A study of Mus musculus with 12 samples.

Results

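The genes described here are Cdkn1a, which encodes the cell cycle inhibitor p21, and 9 other genes tied to the p53 pathway: Trp53 itself, Mdm2, Ccng1, Bax, Bbc3, Pmaip1, Trp53inp1, Phlda3 and Zmat3. They were taken by symbol, and all 10 were found among the 24421 gene symbols of the count table. All 10 were also among the 13281 genes that passed the filter on low counts. The RNA came from KP cells, which derive from a mouse lung adenocarcinoma, and their labels give Trp53flox/flox in every sample, so the groups share that genotype. The 4 groups, with 3 libraries each, were BACH1 knockout cells (guide RNA sgBACH1) with FEM1B siRNA, control-guide cells (sgCTRL) with FEM1B siRNA, knockout cells with control siRNA, and control-guide cells with control siRNA. The siRNA was present for 48 hours, and knockout was made with CRISPR/Cas9. BACH1 represses transcription and is released from DNA by heme, whereas FEM1B picks substrates for a CUL2 ubiquitin ligase. The labels name 1 knockout and 1 control line and do not say whether these are clones, so loss of BACH1 and any other difference between the lines cannot be told apart. The design text calls the 3 libraries of a group biological replicates; where they came from parallel dishes of 1 line, p-values measure only the spread between those dishes.

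The protein p53 is a transcription factor that damaged or stressed cells stabilise, and it switches on genes that stop the cell cycle, repair DNA or kill the cell. MDM2, itself encoded by a p53 target, marks p53 for degradation and closes a feedback loop. In KP tumours a conditional allele loses part of Trp53 after Cre is delivered, and cells that lack p53 can still express its target genes through other transcription factors. The conditional Trp53 allele loses some exons and keeps others, so RNA of a deleted allele can still be counted for Trp53. Counts per gene do not tell deleted from intact RNA, and the labels do not state whether Cre had acted.

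p53 binds pairs of a degenerate 10-base half-site, named here the p53 half-site, and the promoter sequences are shown because these genes are grouped by that factor. RefSeq promoter windows of GRCm38.p6, from 250 bases before to 50 bases after each start, were found for 7 of the 10 genes; those of Pmaip1, Trp53inp1 and Zmat3 are not shown. A half-site lay in the windows of 5 of the 7 genes, and in 5 of their 10 windows, against 8.36% of 32544 distinct windows of that length. The genes were grouped by p53, so this contrast is no separate finding. The half-site reads the same on both strands, and genes with several windows had more chances to hold one. Each sequence runs 5′ to 3′ on the strand of its gene, stops before the start, and has the half-site in capitals.
Cdkn1a (chr17:29090729-29090978, plus strand): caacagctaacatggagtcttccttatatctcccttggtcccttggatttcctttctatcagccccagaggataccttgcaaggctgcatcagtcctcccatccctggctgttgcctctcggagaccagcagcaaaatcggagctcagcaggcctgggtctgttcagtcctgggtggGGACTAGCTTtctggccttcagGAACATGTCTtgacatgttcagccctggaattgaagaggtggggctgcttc
Mdm2 (chr10:117710910-117710969, minus strand): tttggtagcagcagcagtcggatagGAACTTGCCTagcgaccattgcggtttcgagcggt
Ccng1 (chr11:40755437-40755496, minus strand): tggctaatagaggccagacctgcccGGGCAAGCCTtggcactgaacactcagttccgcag
Bax (chr7:45467065-45467124, minus strand): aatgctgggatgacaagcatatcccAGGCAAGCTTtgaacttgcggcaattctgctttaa
Trp53 (chr11:69580259-69580318, plus strand): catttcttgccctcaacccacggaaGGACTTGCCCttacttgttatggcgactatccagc

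The Cdkn1a sequence stands before the upstream of its 2 RefSeq starts. Its second half-site is followed directly by 10 bases that differ from the half-site pattern at 1 position, and it ends 2832 bases before the downstream start. In both Cdkn1a windows together, and in those of Trp53, Ccng1, Bax and Phlda3, the letters TGANNNNGC were found on either strand, which covers the core that BACH1 and NRF2 bind with small MAF proteins; 41.4% of all windows hold it. The AP-1 letters TGANTCA were found in none of the members' 10 windows. Of all windows 7.79% hold them, and 10 windows are too few to tell none from that share. The letters TGACGTCA and TGATGNAA were also in none, against 1.80% and 3.91% of all windows. CACGTG lay in windows of 3 of the genes and GGGCGG in those of 5, against 7.17% and 35.9% of all windows. A match describes the letters only, and binding was not measured.

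Total counts ranged from 16539168 to 22196999 per library, so that 3 counts were worth 0.134 to 0.181 CPM (depth-scaled counts, with library totals multiplied by their TMM factors). The siRNA target Fem1b stood at 49.0 ± 4.71 CPM in knockout cells with FEM1B siRNA and 139 ± 2.75 CPM with control siRNA, and at 51.7 ± 7.78 CPM in control cells with FEM1B siRNA and 163 ± 5.15 CPM with control siRNA (SD, n = 3 each). Bach1 RNA was at 29.5 ± 1.72 CPM in knockout and 31.4 ± 2.04 CPM in control cells with control siRNA, which checks nothing about a CRISPR lesion. With FEM1B siRNA, Bach1 RNA was higher in both genotypes, at 39.9 ± 0.601 CPM in knockout and 41.3 ± 3.25 CPM in control cells. These log2 fold changes, 0.44 ± 0.08 and 0.40 ± 0.08, were both called. Of the epithelial and lung markers, the keratin genes were abundant, the 8 markers together summing to 7080 to 9377 CPM per library, while Nkx2-1 had no count and Sftpc 1 count in all 12 libraries. Single markers of the line differed by genotype: the keratin gene Krt7 by −1.30 ± 0.05 with FEM1B siRNA and −1.96 ± 0.06 with control siRNA on the log2 scale, and the adhesion gene Cdh1 by 0.62 ± 0.06 and 1.0 ± 0.06, with interactions of 0.66 ± 0.08 (adjusted p = 5.97e-05) and −0.38 ± 0.08 (adjusted p = 0.0121). Krt18 differed less, by −0.21 ± 0.06 and −0.34 ± 0.06, and Krt19 was not called, at 0.01 ± 0.06 and −0.04 ± 0.06. Of the 6 line markers tested, 2 were called higher, 2 lower and 2 not at all in each genotype comparison. Leukocyte markers summed to 0.0462 to 0.813 CPM and endothelial markers to 0.299 to 2.14 CPM per library. Fibroblast markers summed to 8.58 to 11.2 CPM in knockout cells and 18.4 to 25.2 CPM in control cells, with Col1a1 the most abundant. The part of these marker differences in the genotype results below, among them those of Pmaip1, Phlda3 and Zmat3, and in the interactions was not tested. Between the lines, expression also shifted by chromosome, so the fits were repeated with the median log2 fold change of every chromosome removed; for the gene lists this was added after the data were seen.

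**Figure D1:**
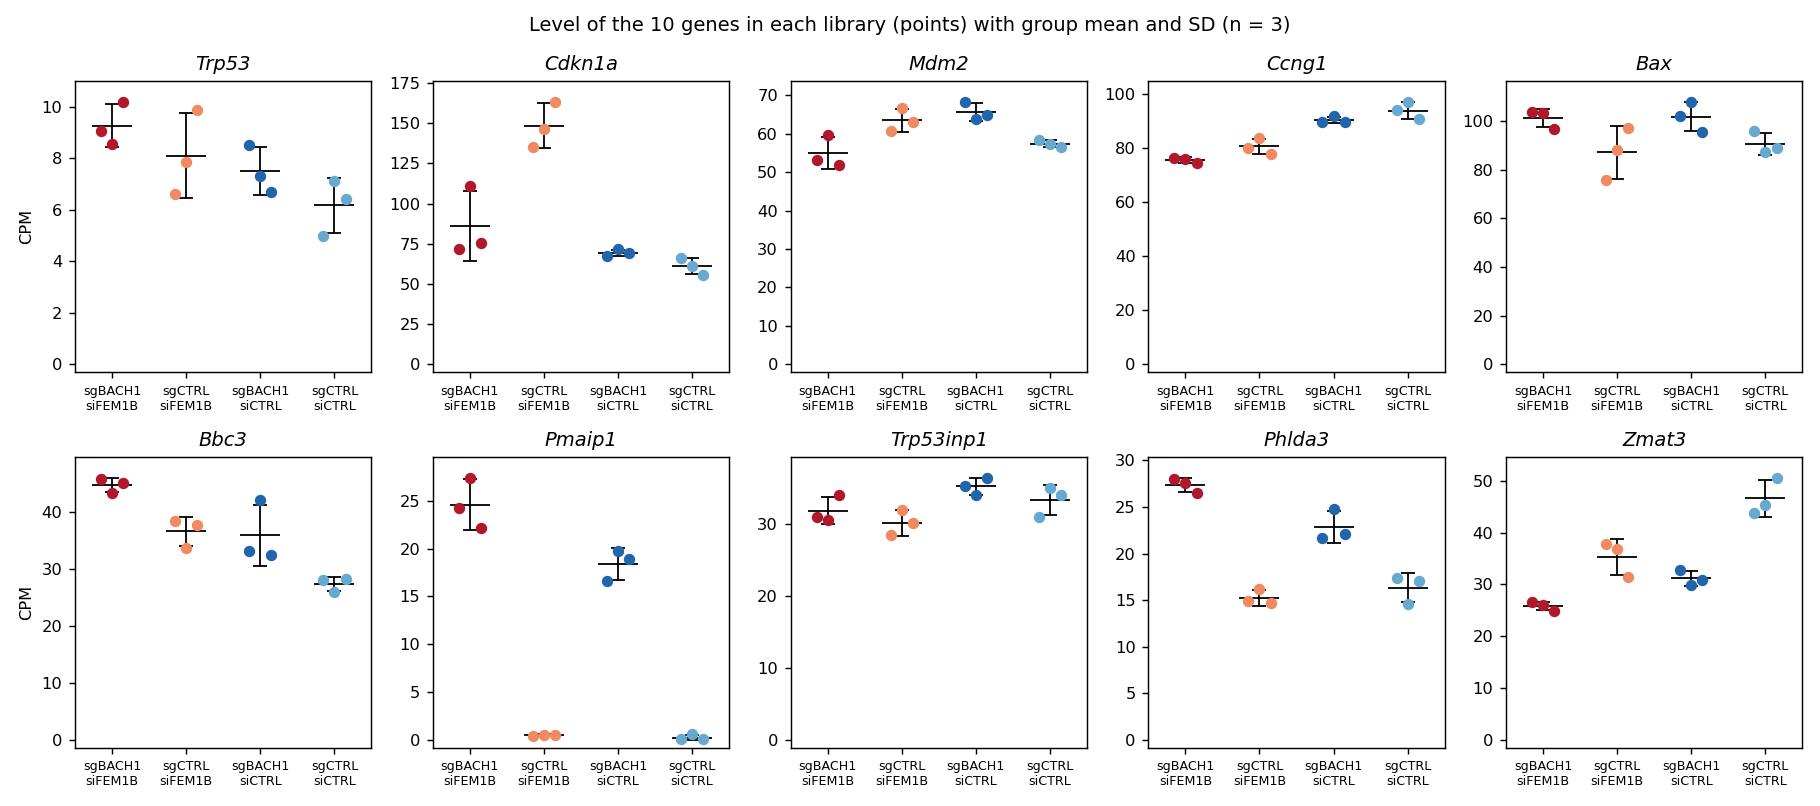
Levels in CPM (vertical axes, linear, 1 panel per gene) in the 3 libraries of each of the 4 groups; points are libraries, bars the mean and SD. Cdkn1a is highest in the 3 sgCTRL siFEM1B libraries, at 135 to 163 CPM, and Pmaip1 is at 16.6 to 27.4 CPM in the 6 sgBACH1 libraries and at 0.0455 to 0.565 CPM in the 6 sgCTRL libraries.

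Trp53 RNA was low and was not called in any comparison. It had 9.07, 8.58 and 10.2 CPM in knockout cells with FEM1B siRNA, 6.60, 7.85 and 9.87 CPM in control cells with FEM1B siRNA, 8.52, 7.33 and 6.70 CPM in the knockout line given control siRNA, and 5.00, 7.11 and 6.42 CPM in control cells with control siRNA. This is the order of their means, and each group overlapped the next. The 2 knockout groups, which are not neighbours in this order, did not overlap, by a narrow gap between 8.58 and 8.52 CPM. The log2 fold change with FEM1B siRNA was 0.30 ± 0.16 in knockout cells (adjusted p = 0.132) and 0.39 ± 0.16 in control cells (adjusted p = 0.0589), by edgeR's quasi-likelihood test with Benjamini-Hochberg adjustment over all 13281 genes; errors of log2 fold changes are standard errors derived from the F statistic. Trp53 lies on chromosome 11, from 69580348 to 69591873. In control cells the change passed the threshold with DESeq2 (adjusted p = 0.0439), with RLE factors (0.0482), without a filter on low counts (0.0333), and without replicate 2 of sgCTRL_siCTRL (0.0358) or replicate 1 of sgCTRL_siFEM1B (0.0161).

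Mdm2, the ubiquitin ligase gene of the feedback loop, moved in opposite directions with genotype under the 2 siRNAs, by small amounts. It had 53.3, 59.7 and 51.9 CPM in knockout cells and 60.7, 66.7 and 63.1 CPM in control cells with FEM1B siRNA. With control siRNA it had 68.3, 63.9 and 65.0 CPM in knockout cells and 58.3, 57.4 and 56.5 CPM in control cells. The knockout libraries were thus all below the control libraries with FEM1B siRNA and all above them with control siRNA. Knockout changed it by −0.21 ± 0.06 with FEM1B siRNA (adjusted p = 0.0104) on the log2 scale and by 0.19 ± 0.06 with control siRNA (adjusted p = 0.0157). With chromosome medians removed the second was 0.09 (adjusted p = 0.261), and the first −0.30 (adjusted p = 0.000616). FEM1B siRNA lowered Mdm2 in knockout cells, by 0.26 ± 0.06 on the log2 scale (adjusted p = 0.00327), while the change in control cells was 0.15 ± 0.06 (adjusted p = 0.0718).

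The interaction for Mdm2, which is the siRNA effect in the knockout line less that in the control line, was −0.40 ± 0.09 (adjusted p = 0.0146). It lost its call without replicate 1 of sgBACH1_siCTRL (adjusted p = 0.0528) and without replicate 1 or 3 of sgBACH1_siFEM1B (0.0514 and 0.0534). The genotype call with control siRNA ended without replicate 3 of sgCTRL_siCTRL (0.0545) or replicate 1 of sgBACH1_siCTRL (0.0733). That with FEM1B siRNA ended when replicate 2 of sgCTRL_siFEM1B (0.0571) or, of sgBACH1_siFEM1B, replicate 3 (0.0591) was left out. The uncalled change in control cells was called with DESeq2 (0.0412), RLE factors (0.0416), genes of an average log2 CPM of at least 3 (0.0249) and without replicate 2 of sgBACH1_siFEM1B (0.0464). Mdm2 is on chromosome 10, from 117688875 to 117710758.

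Cdkn1a, the gene of the CDK inhibitor p21 that arrests cells before DNA replication, rose with FEM1B siRNA in control cells. It had 135, 147 and 163 CPM there with FEM1B siRNA, against 66.1, 61.2 and 55.8 CPM with control siRNA. No library of one group reached the range of the other. The log2 fold change was 1.28 ± 0.11, or 2.43-fold (adjusted p = 3.9e-08), and 318 of the 13281 genes tested had a larger log2 fold change in this comparison. Leaving out each of the 12 libraries in turn gave 1.22 to 1.34. Cdkn1a lies on chromosome 17, from 29090979 to 29100722, on the plus strand.

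In knockout cells the same siRNA changed Cdkn1a far less, and the change rested on 1 library. The levels were 71.7, 111 and 75.7 CPM with FEM1B siRNA, against 67.6, 71.5 and 68.9 CPM with control siRNA. Replicate 2 of the siRNA group stood alone at 111 CPM, and the other libraries of both groups lay within 67.6 to 75.7 CPM. The log2 fold change was 0.31 ± 0.12 (adjusted p = 0.0358), and it was 0.09 ± 0.08 without that library (adjusted p = 0.418). The call also ended without replicate 1, 2 or 3 of sgBACH1_siCTRL (adjusted p = 0.0985, 0.0541 and 0.0873), with DESeq2 (0.12), in a fit to the 2 groups alone (0.0542) and with chromosome medians removed (0.11). In the library that stood alone Fem1b was at 54.4 CPM, against 46.2 and 46.4 CPM in the other libraries of its group, and Mdm2 was also highest there; their part in the result was not tested.

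The siRNA effect on Cdkn1a differed between the genotypes. The interaction, the knockout cells' log2 change less the control cells', was −0.97 ± 0.16 (adjusted p = 0.00188), and it was −1.19 ± 0.11 without the library that stood alone (adjusted p = 7.98e-07). Over all 12 libraries left out in turn it lay between −1.19 and −0.85, with adjusted p at most 0.00942, and 249 of the 13281 genes had a lower value. With FEM1B siRNA, Cdkn1a averaged 86.1 ± 21.7 CPM in knockout and 148 ± 14.01 CPM in control cells (SD, n = 3 each), so the log2 difference was −0.78 ± 0.11 (adjusted p = 8.11e-06). With control siRNA it averaged 69.3 ± 1.99 CPM in knockout and 61.0 ± 5.17 CPM in control cells, and the log2 difference was 0.18 ± 0.12 (adjusted p = 0.199). The last change was called without a filter on low counts (adjusted p = 0.0281), in a fit to the 2 groups alone (0.00763) and without replicate 2 of sgBACH1_siFEM1B (0.0353). The groups in order of mean level were thus sgCTRL_siFEM1B, sgBACH1_siFEM1B, sgBACH1_siCTRL and sgCTRL_siCTRL, with no overlap between neighbours. The lower steps were narrow. The lowest sgBACH1_siFEM1B library, at 71.65 CPM, was barely above the highest sgBACH1_siCTRL library, at 71.52 CPM. The lowest sgBACH1_siCTRL library, at 67.6 CPM, was little above the highest sgCTRL_siCTRL library, at 66.1 CPM.

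**Figure D2:**
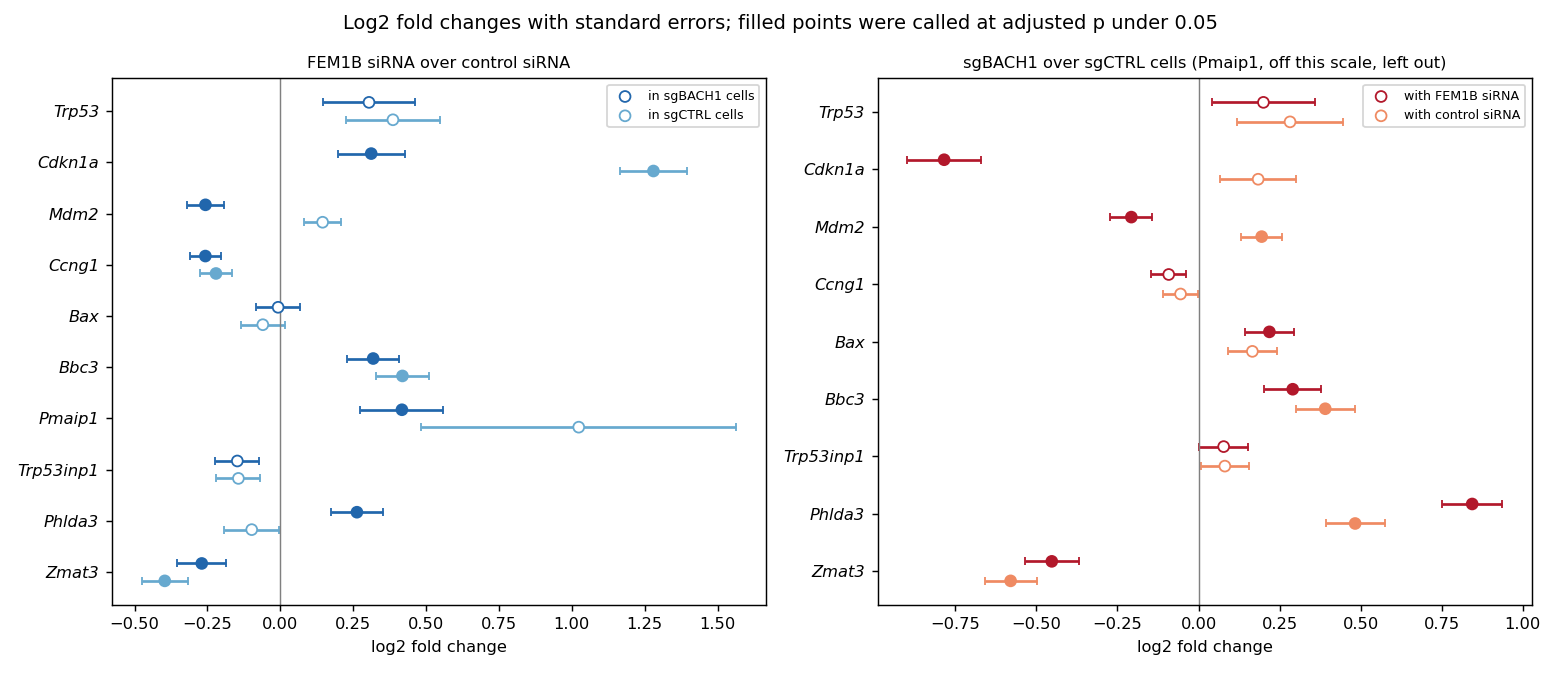
Log2 fold changes (horizontal axes) with standard errors for FEM1B siRNA over control siRNA (left, all 10 genes) and for sgBACH1 over sgCTRL cells (right, without Pmaip1); filled points were called at an adjusted p under 0.05. Cdkn1a stands at 1.28 with FEM1B siRNA in sgCTRL cells and at 0.31 in sgBACH1 cells, and Mdm2 lies on opposite sides of 0 in the 2 genotype comparisons.

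The 3 members of the BCL2 family, which act at the mitochondrion in apoptosis, differed in how they moved. Pmaip1, the gene of the BH3-only protein NOXA, which neutralises MCL1, was detected mainly in knockout cells. It had 24.2, 27.4 and 22.1 CPM in knockout and 0.401, 0.536 and 0.542 CPM in control cells with FEM1B siRNA. With control siRNA it had 16.6, 19.7 and 18.9 CPM in knockout and 0.0455, 0.565 and 0.1003 CPM in control cells. The lowest knockout library was far above the highest control library under both siRNAs. On the log2 scale the difference by genotype was 5.64 ± 0.24 with FEM1B siRNA (adjusted p = 1.71e-13) and 6.24 ± 0.27 with control siRNA (adjusted p = 2.3e-13).

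The control cells with control siRNA held 1, 12 and 2 counts of Pmaip1, so the size of the fold rests on replicate 2. The ratio of summed counts, 1121 in knockout against 15 in control cells, was 77.8 (exact 95% interval 47.0 to 139, counting error only), and it was 258 (88.1 to 1254) without that library. With FEM1B siRNA the ratio was 50.5 (35.2 to 75.1), from 1375 and 30 counts. FEM1B siRNA raised Pmaip1 in knockout cells by 0.42 ± 0.14 on the log2 scale (adjusted p = 0.0236). It depended on 4 libraries: leaving out replicate 1 or 3 of sgBACH1_siCTRL gave adjusted p = 0.109 and 0.0561, and leaving out replicate 1 or 2 of sgBACH1_siFEM1B gave 0.0515 and 0.0889. In control cells the change was 1.02 ± 0.54 (adjusted p = 0.132), rising to 2.67 when replicate 2 of sgCTRL_siCTRL was left out (adjusted p = 0.00198), where 30 counts stood against 3. Pmaip1 lies on chromosome 18, from 66458604 to 66465558; the median log2 fold change of that chromosome was −0.17 with FEM1B siRNA and −0.18 with control siRNA in knockout cells.

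Bbc3, the gene of the BH3-only protein PUMA, rose with either intervention. It had 45.9, 43.4 and 45.1 CPM in knockout cells with FEM1B siRNA, 38.5, 33.7 and 37.7 CPM in control cells with FEM1B siRNA, 33.2, 42.1 and 32.4 CPM in control siRNA knockout cells, and 28, 26.0 and 28.2 CPM in control cells with control siRNA. The doubly altered group was above, and the untouched group below, all other libraries, while the 2 groups between them overlapped. FEM1B siRNA changed it by 0.32 ± 0.09 in knockout cells (adjusted p = 0.00651) and 0.42 ± 0.09 in control cells (adjusted p = 0.000808) on the log2 scale. Knockout changed it by 0.29 ± 0.09 with FEM1B siRNA (adjusted p = 0.00863) and 0.39 ± 0.09 with control siRNA (adjusted p = 0.00123). The siRNA call in knockout cells ended without replicate 3 of sgBACH1_siCTRL (adjusted p = 0.053), and the genotype call with FEM1B siRNA ended without replicate 2 of sgCTRL_siFEM1B (0.0549). The interaction was −0.10 ± 0.13 (adjusted p = 0.684). Bbc3 is on chromosome 7, from 16308398 to 16318334.

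Bax, a pore-forming effector of apoptosis, was nearly level across the groups. It ranged over 96.9 to 104 CPM in knockout cells with FEM1B siRNA, 75.9 to 97.3 CPM in control cells with FEM1B siRNA, 95.6 to 108 CPM in control siRNA knockout cells, and 87.3 to 95.8 CPM in control cells with control siRNA. The 2 genotype ranges overlapped under either siRNA. Its log2 fold change with FEM1B siRNA was −0.01 ± 0.07 in knockout cells (adjusted p = 0.947) and −0.06 ± 0.07 in control cells (adjusted p = 0.545). In knockout against control cells it was 0.22 ± 0.07 with FEM1B siRNA (adjusted p = 0.0182) and 0.17 ± 0.07 with control siRNA (adjusted p = 0.0695). The first call ended with chromosome medians removed (adjusted p = 0.123) and without replicate 1 of sgCTRL_siFEM1B (0.139) or of sgBACH1_siFEM1B (0.0607). The second change passed the threshold with RLE factors (0.0499), without a filter (0.0431), among genes of an average log2 CPM of at least 3 (0.0355), in a fit to the 2 groups (0.00716), and without replicate 1 of sgCTRL_siCTRL (0.0494), replicate 3 of sgBACH1_siCTRL (0.0486), or replicate 1 or 3 of sgCTRL_siFEM1B (0.0298 and 0.0207). Bax shares 12.2% of its exon bases in GENCODE M21 with a gene model on the same strand, and Cdkn1a shares 7.68% with one on the opposite strand, neither of which has a row in the count table; the strand setting of the counting is not given in the sources used here.

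Zmat3, which encodes an RNA-binding regulator of splicing, fell with each intervention. It had 26.6, 26.0 and 24.9 CPM in knockout cells with FEM1B siRNA, 37.9, 36.8 and 31.3 CPM in control cells with FEM1B siRNA, 32.8, 29.9 and 30.8 CPM in control siRNA knockout cells, and 43.8, 45.4 and 50.6 CPM in control cells with control siRNA. The untouched group was above all other libraries and the doubly altered group below all others. Knockout changed Zmat3 by −0.45 ± 0.08 with FEM1B siRNA (adjusted p = 0.000122) and −0.58 ± 0.08 with control siRNA (adjusted p = 5.21e-06) on the log2 scale. On chromosome 3, where it lies from 32334792 to 32365665, the median of all genes was −0.13 and −0.14 in these comparisons, and with chromosome medians removed Zmat3 was at −0.33 (adjusted p = 0.00277) and −0.44 (adjusted p = 0.000171). FEM1B siRNA changed it by −0.27 ± 0.08 in knockout cells (adjusted p = 0.0138) and −0.40 ± 0.08 in control cells (adjusted p = 0.000417). The call in knockout cells ended without replicate 1 of sgBACH1_siCTRL (adjusted p = 0.065) or replicate 3 of sgBACH1_siFEM1B (0.0521).

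Phlda3, whose product competes with AKT for membrane lipids, was higher in knockout cells. It had 28.02, 27.6 and 26.5 CPM in knockout and 14.9, 16.2 and 14.6 CPM in control cells with FEM1B siRNA, which is 0.84 ± 0.09 on the log2 scale (adjusted p = 2.05e-07). With control siRNA it had 21.6, 24.8 and 22.1 CPM in knockout and 17.4, 14.5 and 17.05 CPM in control cells, which is 0.48 ± 0.09 on the log2 scale (adjusted p = 0.000182). All 6 knockout libraries were above all 6 control libraries. FEM1B siRNA changed Phlda3 by 0.26 ± 0.09 in knockout cells (adjusted p = 0.022) and by −0.10 ± 0.09 in control cells (adjusted p = 0.423), and the difference of 0.36 ± 0.13 between these effects was not called (adjusted p = 0.0975). The siRNA call in knockout cells ended without replicate 1 or 3 of sgBACH1_siCTRL (adjusted p = 0.0915 and 0.0825) or replicate 1 of sgBACH1_siFEM1B (0.0705). Phlda3 is on chromosome 1, from 135766085 to 135769134.

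Ccng1, the gene of cyclin G1, which recruits a phosphatase to MDM2, fell with FEM1B siRNA in both genotypes. It had 76.4, 76.1 and 74.5 CPM with FEM1B siRNA and 89.8, 91.9 and 89.6 CPM with control siRNA in knockout cells, which is −0.26 ± 0.05 on the log2 scale (adjusted p = 0.0007). In control cells it had 80.1, 83.8 and 78.0 CPM with FEM1B siRNA and 94.2, 97.0 and 90.7 CPM with control siRNA, which is −0.22 ± 0.05 on the log2 scale (adjusted p = 0.00213). The siRNA groups did not overlap in either genotype, and both calls held without each of the 12 libraries in turn. Genotype changed Ccng1 by −0.09 ± 0.05 with FEM1B siRNA (adjusted p = 0.159) and −0.06 ± 0.05 with control siRNA (adjusted p = 0.402). Ccng1 is on chromosome 11, from 40748552 to 40755309.

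Trp53inp1, whose product promotes autophagy and p53-dependent death, was not called in any comparison. It ranged over 30.4 to 33.97 CPM in knockout and 28.4 to 31.9 CPM in control cells with FEM1B siRNA, and over 33.96 to 36.4 CPM in knockout and 31.0 to 34.9 CPM in control cells with control siRNA. In order of their means, each group overlapped the next, and its log2 fold changes lay between −0.15 and 0.08, with adjusted p from 0.126 to 0.992. It is on chromosome 4, from 11156441 to 11174379.

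Counted over the 10 genes, calls with all libraries went in both directions in each comparison of 2 groups, and a large share of all genes was called as well. Knockout with FEM1B siRNA raised 4 and lowered 3, where 54.6% of all genes tested were called, 28.2% as higher and 26.4% as lower. With chromosome medians removed it raised 3 and lowered 3, beside 3411 and 3232 of all genes. Knockout with control siRNA raised 4 (Mdm2, Bbc3, Pmaip1 and Phlda3) and lowered 1 (Zmat3), where 50.5% were called, 24.2% as higher and 26.3% as lower. With chromosome medians removed it raised 3 and lowered 1, beside 2953 and 2842 of all genes. It raised 6 and lowered 1 without a filter on low counts, beside 3278 and 3583 of all genes. A fit to the 2 groups alone also gave 6 and 1, beside 3719 and 3442. FEM1B siRNA in knockout cells raised 4 and lowered 3, where 41.7% were called, 21.9% as higher and 19.8% as lower. Without replicate 1 of sgBACH1_siCTRL 1 was higher and 2 lower, beside 2462 and 2234 of all genes. Without its replicate 3, 0 were higher and 3 lower, beside 2386 and 2180. With chromosome medians removed 3 were higher and 3 lower, beside 2718 and 2818. In control cells FEM1B siRNA raised 2 (Cdkn1a and Bbc3) and lowered 2 (Ccng1 and Zmat3), where 45.0% were called, 22.1% as higher and 22.9% as lower. With RLE factors or DESeq2 the split was 4 raised and 2 lowered, beside 3158 and 2817 of all genes with RLE factors and 3116 and 2788 with DESeq2. For the interaction 2 of 10 were called, both lower (Cdkn1a and Mdm2), where 6.08% of all genes were called, 3.48% as higher and 2.60% as lower; 1 was called without replicate 1 of sgBACH1_siCTRL or without replicate 1 or 3 of sgBACH1_siFEM1B, by the loss of Mdm2. The libraries of the 2 groups did not overlap for 7 of the 10 genes by genotype with FEM1B siRNA and 6 with control siRNA, against 57.0% and 60.3% of all genes, and for 8 by siRNA in knockout cells and 5 in control cells, against 51.5% and 52.1%. The comparisons share control libraries, so they are not separate evidence of one another. The median log2 fold change of the 10 was 0.14 for knockout with FEM1B siRNA, 0.19 for knockout with control siRNA, 0.13 for FEM1B siRNA in knockout cells and 0.04 in control cells, against 0.01, −0.02, 0.02 and 0.00 over all genes.

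A list of 40 other genes described as p53 targets went both ways. 36 passed the filter; Fas, Eda2r and Dram1 had at most 12 counts in any library, and Trp53i11 had none. FEM1B siRNA raised 14 and lowered 6 of the 36 in knockout cells (median log2 fold change 0.15), where 21.9% of all genes were called higher and 19.8% lower, and raised 11 and lowered 10 in control cells (median 0.03), where 22.1% and 22.9% were. The shares over all genes given for the 10 genes apply to the lists below as well, except where chromosome medians were removed. In that fit knockout raised 3411 and lowered 3232 of all 13281 genes with FEM1B siRNA, and 2953 and 2842 with control siRNA. Knockout raised 13 and lowered 8 with FEM1B siRNA (median 0.02) and raised 9 and lowered 11 with control siRNA (median −0.01). Btg2, an antiproliferative gene, was at 56.5 ± 2.25 CPM with FEM1B siRNA and 28.5 ± 0.522 CPM with control siRNA in knockout cells, and at 78.0 ± 6.69 and 43.6 ± 2.76 CPM in control cells; the siRNA effect was thus 0.99 ± 0.07 in knockout cells (adjusted p = 6.02e-09) and 0.84 ± 0.07 in control cells (adjusted p = 1.58e-08) on the log2 scale. Cd82, a tetraspanin, changed with the siRNA by 1.03 ± 0.08 in knockout cells (adjusted p = 1.32e-08) and 1.62 ± 0.09 in control cells (adjusted p = 1.46e-10), with an interaction of −0.59 ± 0.12 (adjusted p = 0.00925). Ak1, an adenylate kinase gene, was at 5.64 ± 0.731 CPM in knockout and 15.2 ± 1.94 CPM in control cells with FEM1B siRNA, and at 3.52 ± 0.714 and 11.4 ± 1.81 CPM with control siRNA. Cpt1c, a carnitine palmitoyltransferase family gene, was at 3.69 ± 0.202 CPM in knockout and 0.174 ± 0.104 CPM in control cells with FEM1B siRNA, and at 4.42 ± 0.431 and 0.178 ± 0.128 CPM with control siRNA.

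The p53 relatives Trp63 and Trp73 were not detectable or nearly so, at 13 counts and 0 counts over all 12 libraries. Of 22 genes of the p53 family and its regulators, 20 passed the filter. FEM1B siRNA raised 3 and lowered 4 in knockout cells (median 0.00) and raised 2 and lowered 4 in control cells (median −0.04). Knockout raised 8 and lowered 3 with FEM1B siRNA (median 0.12; 8 and 5 with chromosome medians removed) and raised 5 and lowered 2 with control siRNA (median 0.09). Kat5, an acetyltransferase gene that acts on p53 and ATM, was higher in knockout cells by 0.72 ± 0.06 with FEM1B siRNA (adjusted p = 8.52e-09) and 0.63 ± 0.06 with control siRNA (adjusted p = 5.93e-08). On its chromosome, 19, the median of all genes was 0.44 in both comparisons, and with chromosome medians removed Kat5 was at 0.29 ± 0.06 (adjusted p = 0.000747) and 0.18 ± 0.06 (adjusted p = 0.0215). Atr, the replication stress kinase gene, fell with FEM1B siRNA by 0.63 ± 0.08 in knockout cells (adjusted p = 3.51e-06) and 0.58 ± 0.08 in control cells (adjusted p = 1.16e-05). Cdkn2a, which encodes p16INK4A and the MDM2 inhibitor ARF from shared exons that counts per gene do not separate, rose with the siRNA in knockout cells by 0.41 ± 0.06 (adjusted p = 1.12e-05), and was at 0.10 ± 0.06 in control cells (adjusted p = 0.166), an interaction of 0.31 ± 0.08 (adjusted p = 0.0296). Hipk2, a kinase gene that acts on p53, fell with the siRNA in knockout cells by 0.41 ± 0.14 (adjusted p = 0.0257); the change was −0.20 ± 0.14 in control cells (adjusted p = 0.238), and the interaction was not called (−0.21 ± 0.20, adjusted p = 0.562).

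Among 13 other BCL2 family genes, 10 passed the filter. With FEM1B siRNA 6 rose and 1 fell in knockout cells (median 0.22), where 21.9% of all genes were called higher and 19.8% lower, and 5 rose and 2 fell in control cells (median 0.24), where 22.1% and 22.9% were. Bcl2, the founding survival gene, was at 13.2 ± 0.560 CPM with FEM1B siRNA and 27.0 ± 0.716 CPM with control siRNA in knockout cells, and at 19.2 ± 1.86 and 40.7 ± 5.34 CPM in control cells. Its log2 fold changes were −1.03 ± 0.10 (adjusted p = 1.82e-07) and −1.08 ± 0.09 (adjusted p = 3.01e-08). Bak1, another pore-forming effector, changed by 0.49 ± 0.05 in knockout cells (adjusted p = 8.68e-07) and 0.56 ± 0.05 in control cells (adjusted p = 9.87e-08). The BH3-only gene Bmf changed by 0.71 ± 0.09 and 0.58 ± 0.09, and Bok by 0.46 ± 0.08 and 0.50 ± 0.08. Knockout raised 3 and lowered 4 of the 10 with FEM1B siRNA (median −0.09) and raised 3 and lowered 3 with control siRNA (median −0.03; 2 and 5 with chromosome medians removed).

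Of the 6 other CDK inhibitor genes, 5 passed the filter, and Cdkn1c had 6 counts in all. Cdkn2a is among the 5 and was also counted with the p53 family and its regulators above. FEM1B siRNA raised 4 and lowered 1 in knockout cells (median 0.41) and raised 3 and lowered 1 in control cells (median 0.51). Cdkn2d, which encodes p19INK4D, rose by 0.69 ± 0.10 in knockout cells (adjusted p = 1.96e-05) and 0.98 ± 0.10 in control cells (adjusted p = 3.31e-07), and Cdkn2c, which encodes p18INK4C, by 0.77 ± 0.09 (adjusted p = 2.2e-06) and 0.78 ± 0.09 (adjusted p = 9.55e-07). Cdkn2b, which encodes p15INK4B, fell by 0.43 ± 0.08 (adjusted p = 0.0003) and 0.62 ± 0.08 (adjusted p = 5.32e-06). Cdkn1b, the gene of the p21 relative p27, was at 257 ± 23.2 CPM in knockout and 152 ± 10.97 CPM in control cells with FEM1B siRNA, and at 214 ± 7.59 and 107 ± 4.41 CPM with control siRNA. Knockout changed Cdkn1b by 0.76 ± 0.07 with FEM1B siRNA (adjusted p = 7.58e-09) and 1.0 ± 0.07 with control siRNA (adjusted p = 1.38e-10). Knockout raised 3 and lowered 1 of the 5 with FEM1B siRNA (median 0.33) and raised 2 with control siRNA (median 0.14); with chromosome medians removed it raised 3 and 1, and lowered none.

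All 13 cyclin, CDK and partner genes that p21 and its relatives act on passed the filter. FEM1B siRNA raised 5 and lowered 2 in knockout cells (median 0.02) and raised 6 and lowered 3 in control cells (median 0.05). Ccnd3, a D-type cyclin gene, rose by 0.73 ± 0.08 (adjusted p = 4.3e-07) and 0.92 ± 0.08 (adjusted p = 1.58e-08), while Ccnd1, another, fell by 0.50 ± 0.07 (adjusted p = 5.17e-06) and 0.61 ± 0.07 (adjusted p = 3.41e-07). Pcna, the gene of the replication clamp that p21 binds, rose by 0.47 ± 0.08 (adjusted p = 9.45e-05) and 0.53 ± 0.08 (adjusted p = 1.84e-05), and Cdk6 fell by 0.67 ± 0.11 (adjusted p = 9.06e-05) and 0.36 ± 0.11 (adjusted p = 0.0124). Knockout raised 5 and lowered 1 of the 13 with FEM1B siRNA (median 0.00) and raised 4 with control siRNA (median 0.15); with chromosome medians removed it raised 4 and lowered 2 with FEM1B siRNA, and raised 6 and lowered 1 with control siRNA.

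**Figure D3:**
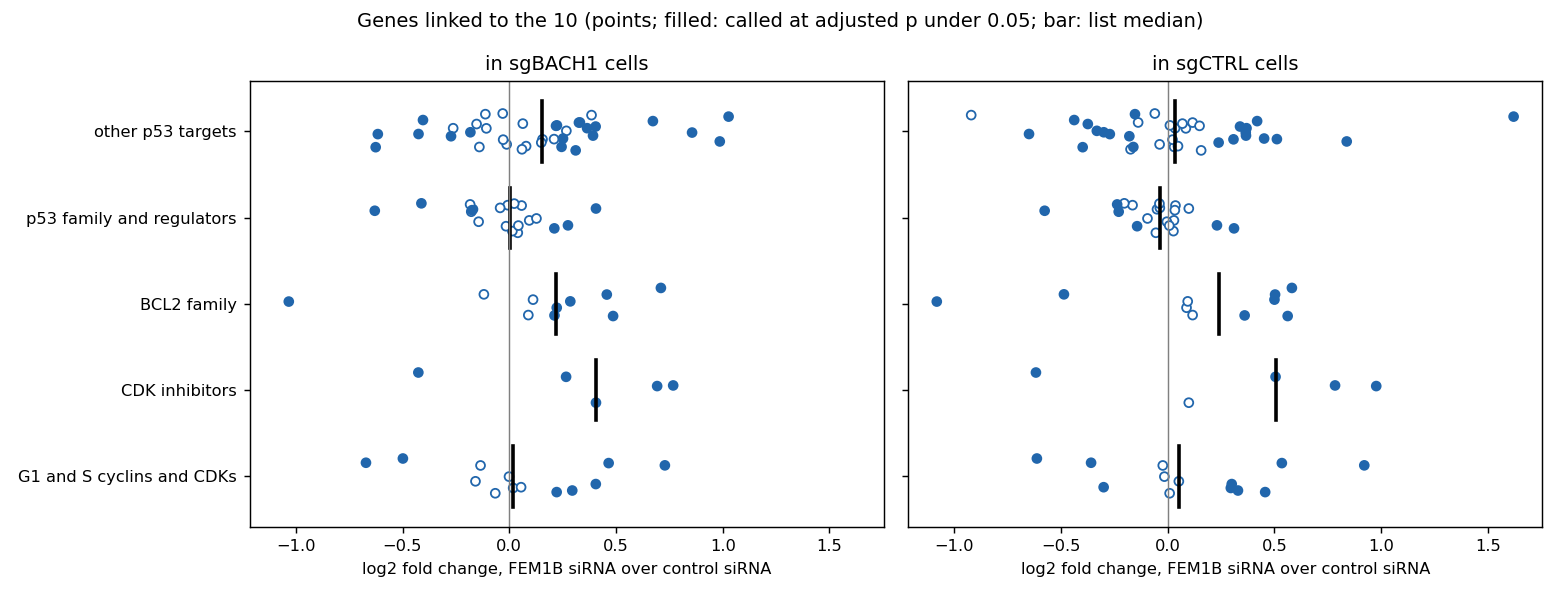
Log2 fold changes of FEM1B siRNA over control siRNA (horizontal axes) in sgBACH1 cells (left) and sgCTRL cells (right) for the genes of 5 lists linked to p53 and p21; points are genes, filled where called, and bars are list medians. The BCL2 family medians stand at 0.22 and 0.24 with Bcl2 alone beyond −1 at −1.03 and −1.08, and the other p53 targets spread on both sides of 0.

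The genes whose group means most resembled those of Cdkn1a were found among 9999 others whose average log2 CPM reached 3, by the root mean square difference between the 4 group means of log2 CPM, each gene centred on its own average. The 5 nearest were Ndst3, Arid3a, Eif4ebp2, Enpp2 and Mxd1, at 0.147 to 0.166. Mxd1, a MYC antagonist gene, had 37.8 ± 6.42 CPM in knockout and 55.4 ± 3.98 CPM in control cells with FEM1B siRNA, and 22.3 ± 2.23 and 23.6 ± 1.54 CPM with control siRNA. Enpp2, the gene of the lysophosphatidic acid producing enzyme autotaxin, had 19.1 ± 3.40 and 30.0 ± 2.54 CPM with FEM1B siRNA, and 12.4 ± 1.54 and 10.4 ± 0.459 CPM with control siRNA. In all 5 genes, control cells with FEM1B siRNA had the highest mean, and knockout cells with FEM1B siRNA came next. The 5 were chosen for likeness to Cdkn1a, so this shared order follows from the choice and is no separate finding. The measure rests on 4 means that share libraries and carries no test.

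**Figure D4:**
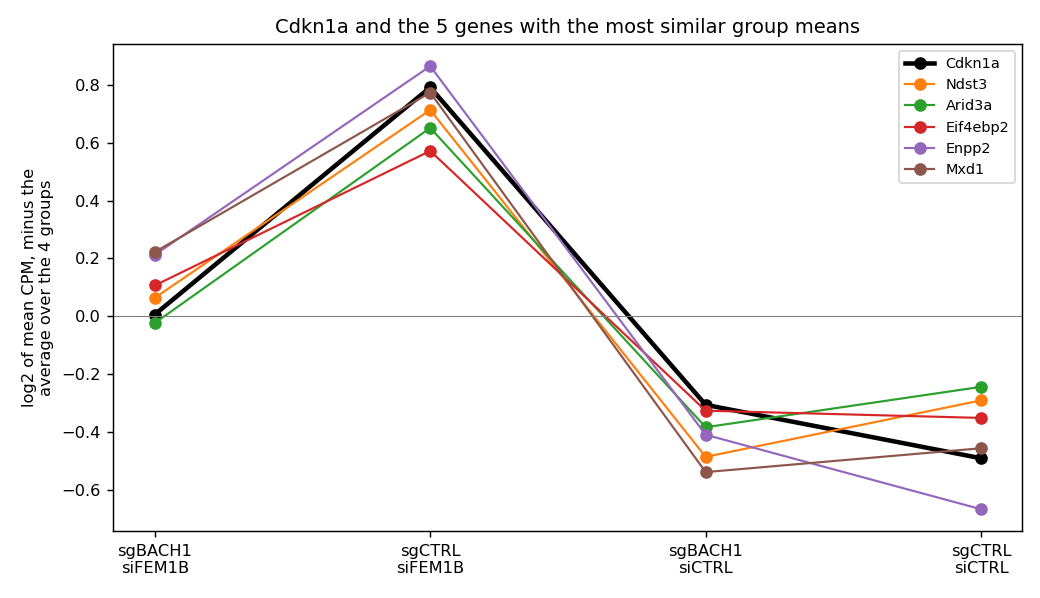
Log2 of the mean CPM of each group, minus the gene's average over the 4 groups (vertical axis), for Cdkn1a (black) and the 5 genes nearest to it, with lines joining the groups of 1 gene. All 6 genes are highest in sgCTRL siFEM1B cells, which follows from choosing the 5 for likeness to Cdkn1a. Cdkn1a averaged 148 CPM there against 86.1 CPM in sgBACH1 siFEM1B cells.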

How the data were processed

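Stranded poly(A) libraries of 12 samples were sequenced. The authors deposited unscaled counts, 1 whole number for each gene symbol and library. Per the submitters' processing notes, Subread, featureCounts 1.6.4, SAMtools 1.9, DESeq2 1.26.0 and build mm10 were used, with no role given; the sources used here give neither annotation nor strand setting. Columns were matched to samples by name. No pair of replicates was identical (chi-square 2.52 to 13.9 per degree of freedom).

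Genes were kept with filterByExpr (minimum count 10) and scaled with TMM factors (0.989 to 1.01). One mean per group was fitted to all 12 libraries with edgeR 4.0.16 in R 4.3.3, leaving 8 residual degrees of freedom, and the quasi-likelihood test was two-sided; a gene was called where its adjusted p (Benjamini-Hochberg) was below 0.05. Alternatives included DESeq2 1.42.0, other scalings and filters, a replicate block, chromosome medians removed and each library left out. Replicate numbers were not taken as pairs.

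The 10 genes, the lists and the naming rule were chosen with earlier results of these data known. The rule named the 10 genes, up to 4 genes per list, those called in a comparison of 2 groups with the largest change and an average log2 CPM of at least 1, and the 5 genes nearest to Cdkn1a. One gene the rule named and 1 other allele of the line are not reported here. The symbol Cop1 was matched as Rfwd2. Positions are RefSeq's for GRCm38.p6, the assembly mm10 denotes. Promoter motifs were chosen after the counts were seen.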

Additional observations from a re-analysis of the deposited data

Results flagged for a closer look

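The effect of FEM1B siRNA differed between the genotypes, by the interaction term, for 2 of the 10 genes. Of all 13281 genes tested, 6.08% were called for the interaction. For Cdkn1a the log2 change in the knockout line less that in the control line was −0.97 ± 0.16 (adjusted p = 0.00188). Cdkn1a rose in control cells. Its smaller change in knockout cells was not called without replicate 2 of sgBACH1_siFEM1B (0.09 ± 0.08, adjusted p = 0.418). For Mdm2 the interaction was −0.40 ± 0.09 (adjusted p = 0.0146), a fall in knockout cells beside an uncalled change of 0.15 ± 0.06 in control cells. The Mdm2 interaction lost its call in 3 of 12 fits with a library left out (adjusted p up to 0.0534).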

How the results depend on the processing

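Over 8 settings that kept all libraries of a comparison, 365 of 385 fold changes of the 10 genes kept direction and side of the threshold, 5 lost and 12 gained a call, and 3 uncalled values changed sign. These were Ccng1 in knockout cells with control siRNA (0.0193 with chromosome medians removed), Bax with FEM1B siRNA in knockout cells (0.0019 with library totals) and the Bax interaction (−0.0158 with chromosome medians removed). With 1 library left out, 554 of 600 stayed, 24 lost and 9 gained a call, and 13 uncalled values changed sign: Bax with FEM1B siRNA ranged over −0.0514 to 0.0347 in knockout and −0.131 to 0.0319 in control cells, and the interactions over −0.0394 to 0.109 for Bax, −0.215 to 0.0523 for Trp53, −0.171 to 0.0299 for Bbc3 and −0.0525 to 0.0464 for Trp53inp1. With 1 library left out, 3 to 7 of the 10 genes were called for FEM1B siRNA in knockout cells and 1 to 2 for the interaction. Over all genes, calls for FEM1B siRNA in knockout cells numbered 5539, and 4566 to 5895 with 1 library left out. Interaction calls over all genes numbered 807, between 297 (without replicate 1 of sgBACH1_siFEM1B) and 1859 (without replicate 2 of that group) with 1 library left out, and 1393 without a filter on low counts; the causes were not tested. Same-numbered libraries did not deviate together (r −0.115 to 0.0788 over 18 pairs), and 2 of 12 correlated best with their own number; with the replicate block 603 genes were called for the interaction and no call of the 10 genes changed. Trp53 fell below the stricter filter, and the fit to the groups compared alone was not run for the interaction. Counts of Pmaip1 in control cells limit its fold.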

Other observations

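Genes of the ATF4 and CHOP stress branch, whose factors can also act on Pmaip1 and Bbc3, were not uniform. All 9 listed genes passed the filter; FEM1B siRNA raised 2 and lowered 1 in knockout cells and raised 3 and lowered 3 in control cells, and knockout raised 1 and lowered 2 with FEM1B siRNA and raised 2 and lowered 3 with control siRNA. Of all genes, the siRNA raised 21.9% and lowered 19.8% in knockout cells, and 22.1% and 22.9% in control cells. Knockout raised 28.2% and lowered 26.4% with FEM1B siRNA, and 24.2% and 26.3% with control siRNA. With chromosome medians removed, knockout raised 1 and lowered 3 of the 9 with FEM1B siRNA, and 2 and 2 with control siRNA. That fit raised 3411 and lowered 3232 of all 13281 genes with FEM1B siRNA, and 2953 and 2842 with control siRNA. Nupr1, a stress-induced chromatin protein gene, was at 239 ± 9.54 CPM with FEM1B siRNA and 189 ± 5.55 CPM with control siRNA in knockout cells, and at 231 ± 51.4 and 138 ± 6.72 CPM in control cells. Atf3 was at 19.9 ± 1.96 CPM in knockout and 33.98 ± 1.47 CPM in control cells with FEM1B siRNA (log2 fold change −0.77 ± 0.09, adjusted p = 4.3e-07), with an interaction of −0.44 ± 0.12 (adjusted p = 0.0392). Ddit3, the gene of CHOP, changed with the siRNA by −0.17 ± 0.13 in knockout cells (adjusted p = 0.301) and 0.32 ± 0.12 in control cells (adjusted p = 0.0457, and 0.0553 with chromosome medians removed), and Trib3 by −0.35 ± 0.16 (adjusted p = 0.0775) and −0.61 ± 0.15 (adjusted p = 0.00298).

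Transcription factor genes described as regulators of Cdkn1a other than p53 also went both ways, with 20 of 21 passing the filter. FEM1B siRNA raised 3 and lowered 7 in knockout cells and raised 3 and lowered 5 in control cells. Knockout raised 5 and lowered 10 with FEM1B siRNA and raised 7 and lowered 9 with control siRNA. Of all genes, it raised 28.2% and lowered 26.4% with FEM1B siRNA, and 24.2% and 26.3% with control siRNA. FEM1B siRNA raised 21.9% and lowered 19.8% of all genes in knockout cells, and 22.1% and 22.9% in control cells. With chromosome medians removed, knockout raised 5 and lowered 11 of the 20 with FEM1B siRNA, and 6 and 8 with control siRNA. Over all 13281 genes that fit gave 3411 higher and 3232 lower with FEM1B siRNA, and 2953 and 2842 with control siRNA. Cebpa, a differentiation factor gene, was at 14.8 ± 1.32 CPM in knockout and 4.46 ± 0.543 CPM in control cells with FEM1B siRNA, and at 3.74 ± 1.2 and 1.92 ± 0.0575 CPM with control siRNA. Egr1, an immediate early gene, changed with the siRNA by 0.42 ± 0.09 in knockout cells (adjusted p = 0.00127) and by −0.33 ± 0.09 in control cells (adjusted p = 0.00562), an interaction of 0.75 ± 0.13 (adjusted p = 0.00246). Knockout changed Cebpb by −0.66 ± 0.19 with FEM1B siRNA (adjusted p = 0.006) and −0.84 ± 0.19 with control siRNA (adjusted p = 0.000816) on the log2 scale.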
